A study of Mus musculus with 6 samples.

Results

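The transcription factor NRF2 and the glutathione system it serves were followed through 10 genes in mouse liver RNA: Nfe2l2, Keap1, Gclc, Gclm, Gss, Gsr, Nqo1, Txnrd1, Srxn1 and Gpx1. The genes were chosen by name, for their roles in glutathione synthesis and in the NRF2 response, and not by a cut on their values, though earlier results of these data were known. All 10 were found among the 49212 genes of the deposited count tables, and all 10 passed the filter on low counts. The study compared liver of C57BL/6J mice aged 15 weeks in 6 libraries, 3 labelled placebo and 3 labelled as PCOS mice treated with a DHT pellet. DHT is dihydrotestosterone, an androgen that is not converted to oestrogen, and its implants are used to model polycystic ovary syndrome (PCOS) in mice. Both groups share the strain and the age, and the sources used here do not give the sex of the animals, the dose of the pellet or its duration.

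NRF2, the product of Nfe2l2, is held at a low level by KEAP1, an adaptor that brings it to a ubiquitin ligase. When cysteines of KEAP1 are modified by oxidants or electrophiles, NRF2 accumulates, enters the nucleus and binds antioxidant response elements together with a small MAF protein. Its targets make glutathione, the main thiol of the liver cell, reduce thioredoxin and detoxify quinones. Glutathione is built in a pair of steps: glutamate-cysteine ligase, with the catalytic subunit GCLC and the modifier subunit GCLM, makes the dipeptide and limits the rate, and glutathione synthetase (GSS) adds glycine.

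The core of the antioxidant response element is often written TGACNNNGC, and this motif was searched on both strands in windows from 250 bases before to 50 bases after the gene starts in RefSeq (GRCm38.p6). Windows were at hand for 8 of the 10 genes and not for Gclc and Gsr. The motif stood in 4 of the 10 windows of these genes, against 12.4% of all 32851 windows. The related motif TGAGNNNGC stood in 1 of the 10, that of Srxn1, against 17.6% of all windows. The exact letters TGAGTCAGC, which are 1 form of it, were found in the same window and in 0.414% of all windows. A match is a description of the letters and not a binding site. The stretches with a match are shown for their letters alone, and binding of NRF2 was not measured. The sequences below run 5′ to 3′ on the strand of the gene, with the match in capitals.
Srxn1 (chr2:152105463-152105503, plus strand, match beginning 45 bases before the start): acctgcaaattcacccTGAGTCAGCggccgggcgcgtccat
Srxn1 (chr2:152105350-152105390, plus strand, 158 bases before the start, read as the reverse complement): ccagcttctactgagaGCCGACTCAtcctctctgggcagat
Gclm (chr3:122245407-122245447, plus strand, 134 bases before the start, reverse complement): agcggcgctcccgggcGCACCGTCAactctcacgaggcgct
Txnrd1 (chr10:82859098-82859138, plus strand, 92 bases before the start, reverse complement): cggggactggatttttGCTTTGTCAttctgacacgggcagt
Nfe2l2 (chr2:75704879-75704913, minus strand, 240 bases before the start): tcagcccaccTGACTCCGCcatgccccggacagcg
The remaining match, in Srxn1, lay after the start and is not printed.

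Total counts per library lay between 41336844 and 60209462. The labels do not state that the libraries came from separate animals, so the p-values measure the spread between these samples. In 4 Y-linked genes, summed, the placebo libraries held 0.12 to 0.20 and the libraries labelled DHT 137 to 153 CPM, counts scaled to a common library total, so a difference in sex between the animals and the treatment label cannot be told apart in any comparison here. Placebo library 3 had the lowest share of mitochondrial counts (3.23%, against 4.83% to 8.48% in the other libraries), and results that turn on it are given with and without it. CPM values are scaled by TMM, a correction for differences in library composition. The fold changes, DHT minus placebo on the log2 scale with their standard errors (SE), and the adjusted p-values are from edgeR's quasi-likelihood test with Benjamini-Hochberg adjustment over 15126 genes. Genes with an adjusted p under 0.05 are spoken of as called.

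Of the 10 genes, 1 was called, Gclc, which was higher in the libraries labelled DHT. Across all genes tested, 1.65% were called, 0.952% higher and 0.701% lower. The other 9 did not pass, and 2 of the 10 had an unadjusted p under 0.05, where 15.9% of all genes did. The median log2 fold change of the 10 was 0.24, beside −0.024 for all genes tested, and 8 of the 10 were above 0, where 48.1% of all genes were. In 3 of the 10 (Gclc, Gsr and Txnrd1) the libraries labelled DHT lay above all placebo libraries, where groups did not overlap in 23.6% of all genes, 12.7% with DHT higher. With CPM of total counts, without TMM, the count was 5 of 10, with Nfe2l2 and Srxn1 added, against 27.4% of all genes, 21.1% with DHT higher. Scaling by library size alone moved the median over all genes from −0.024 to 0.17 on the log2 scale, so the genes are described relative to the TMM scale.

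**Figure D1:**
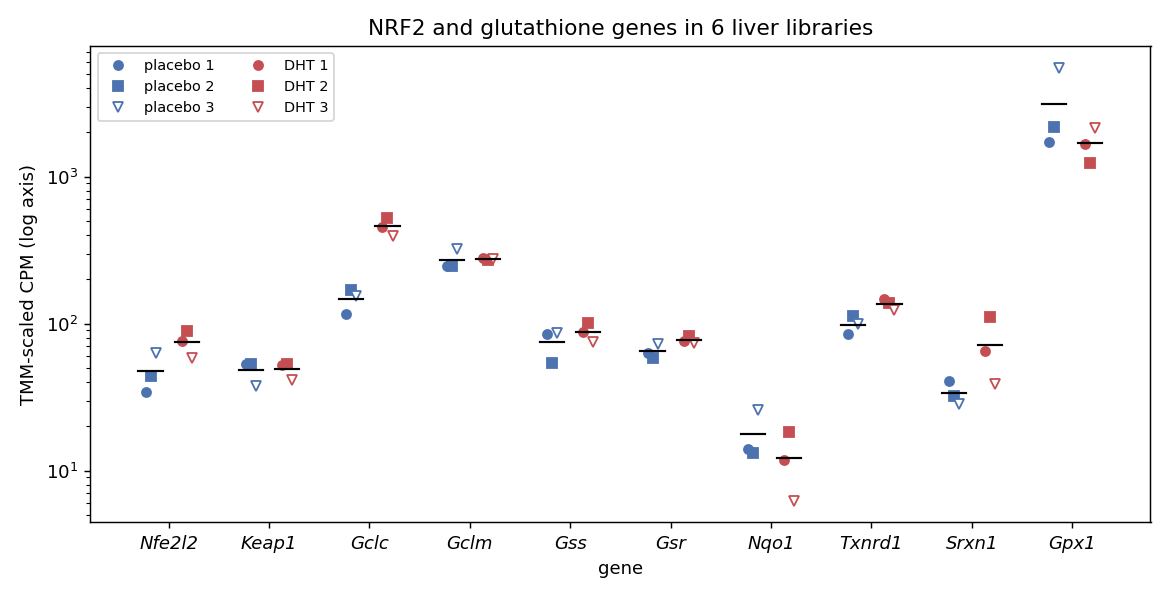
TMM-scaled CPM (vertical log axis) of the 10 genes in each placebo (blue) and DHT (red) library, with black lines at the group means. Gclc lies at 117 to 170 in placebo and at 398 to 525 in the libraries labelled DHT, while most other genes overlap between the groups, and Gpx1 stands apart in placebo 3 at 5520.4.

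Nfe2l2, the gene of NRF2 itself (GRCm38 chromosome 2, 75675513 to 75704641, minus strand), held 34.6, 44.0 and 63.4 CPM in placebo 1, 2 and 3. In DHT 1, 2 and 3 it held 76.7, 88.7 and 58.8 CPM. The groups overlapped, because placebo 3 was above DHT 3. The mean was 47.3 ± 14.7 against 74.7 ± 15.0 CPM (SD, n = 3 each), and the log2 fold change of 0.66 ± 0.30 did not pass (edgeR adjusted p = 0.328). Without both libraries numbered 3, the highest of placebo and the lowest of DHT, it was 1.07 ± 0.21 and still did not pass (adjusted p = 0.0561). The log2 fold change of Nfe2l2 was 0.45 ± 0.31 without placebo 1 (edgeR adjusted p = 0.529). Without DHT 2 it was 0.53 ± 0.36 (adjusted p = 0.701). Keap1, the gene of its adaptor (chromosome 9, 21229730 to 21239361, minus strand), held 53.0, 53.6 and 37.9 CPM in placebo and 52.3, 53.3 and 41.6 CPM in DHT 1, 2 and 3. In both groups the library numbered 3 was the lowest. The log2 fold change of Keap1 was 0.028 ± 0.25 (edgeR adjusted p = 0.97), and its sign turned in 5 of 16 alternatives.

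Gclc, the catalytic subunit gene of glutamate-cysteine ligase (chromosome 9, 77754535 to 77794485, plus strand), held 117, 170 and 155 CPM in placebo 1, 2 and 3 and 456, 525 and 398 CPM in DHT 1, 2 and 3. All 3 libraries labelled DHT were above the highest placebo library. Placebo averaged 147 ± 27.5 CPM and DHT 459.7 ± 63.8 CPM (SD, n = 3 each), so that Gclc rose 3.13-fold, a log2 fold change of 1.64 ± 0.27 (edgeR adjusted p = 0.0259). The change stayed between 1.48 and 1.84 in all 16 alternatives, and Gclc was called in 11 of them. The call was lost in 5 of the 6 fits that left out 1 library, those without placebo 1 or 2 or any of the 3 DHT libraries (adjusted p up to 0.123). It was kept without placebo 3 (adjusted p = 0.0112), where 5.54% of all genes were called, and without both libraries numbered 3 (adjusted p = 0.0286), where 2.95% were.

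Gclm, the gene of the modifier subunit (chromosome 3, 122245557 to 122270732, plus strand), held 246, 248 and 320.2 CPM in placebo. In DHT 1, 2 and 3 it held 278, 273 and 277 CPM, all within the range of placebo. The group means were 272 ± 42.1 and 276 ± 2.92 CPM (SD, n = 3 each), and the log2 fold change was 0.024 ± 0.24 (edgeR adjusted p = 0.975), with a sign that turned in 4 of 16 alternatives. Gss, the gene of the second enzyme of glutathione synthesis (chromosome 2, 155563181 to 155592810, minus strand), held 85.6, 54.2 and 86.7 CPM in placebo and 87.9, 101 and 74.5 CPM in DHT 1, 2 and 3. Placebo 2 was the lowest library and DHT 2 the highest, and the groups overlapped. Its log2 fold change was 0.22 ± 0.27 (edgeR adjusted p = 0.726), 0.015 without placebo 2, 0.11 without DHT 2 and 0.33 without DHT 3. Exons of Gss overlap those of 3 neighbours on the opposite strand, Acss2, Gssos2 and Gssos1, over 15.4% of their length in all, those of Keap1 overlap Gm16754 over 10.9% and those of Gclm overlap 2 genes over 4.71%. The sources used here do not say whether the counting used the strand, so counts there cannot be assigned with certainty.

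Gsr, which encodes glutathione reductase, the enzyme that returns oxidised glutathione to its reduced form with NADPH (chromosome 8, 33652523 to 33698163, plus strand), held 63.4, 58.3 and 73.3 CPM in placebo. In DHT 1, 2 and 3 it held 76.5, 82.4 and 74.2 CPM. The groups did not overlap, but placebo 3 and DHT 3 lay close together. The log2 fold change of 0.26 ± 0.22 did not pass (edgeR adjusted p = 0.595), and without placebo 2 it was 0.17. Gpx1, a selenium-dependent peroxidase that spends glutathione on hydrogen peroxide (chromosome 9, 108338903 to 108340343, plus strand), held 1714, 2175 and 5520.4 CPM in placebo and 1679.5, 1232 and 2158 CPM in DHT 1, 2 and 3. Placebo 3 was far above every other library, placebo 1 lay within the range of DHT and placebo 2 just above it. The log2 fold change of Gpx1 was −0.89 ± 0.47 (edgeR adjusted p = 0.389), and without placebo 3 it was −0.21 ± 0.30 (adjusted p = 0.714).

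Txnrd1, the gene of the cytosolic thioredoxin reductase (chromosome 10, 82859206 to 82897724, plus strand), held 84.4, 112 and 98.9 CPM in placebo and 147, 138 and 125 CPM in DHT 1, 2 and 3. The groups did not overlap. The mean was 98.6 ± 13.99 against 137 ± 11.2 CPM (SD, n = 3 each), and the log2 fold change of 0.47 ± 0.24 did not pass (edgeR adjusted p = 0.369). Srxn1, which encodes sulfiredoxin, the enzyme that repairs overoxidised peroxiredoxins (chromosome 2, 152105516 to 152111376, plus strand), held 40.5, 32.2 and 28.6 CPM in placebo and 65.1, 111 and 39.0 CPM in DHT 1, 2 and 3. DHT 2 was the highest library, and DHT 3 lay just below placebo 1. The mean of Srxn1 was 33.8 ± 6.12 against 71.6 ± 36.3 CPM (SD, n = 3 each). Its log2 fold change of 1.08 ± 0.38 was not called (edgeR adjusted p = 0.233), and without DHT 2 it was 0.63 ± 0.35 (adjusted p = 0.642). Nqo1, a quinone reductase gene often used as a readout of NRF2 (chromosome 8, 107388225 to 107403206, minus strand), held 13.98, 13.2 and 26.0 CPM in placebo and 11.8, 18.3 and 6.26 CPM in DHT 1, 2 and 3. The highest and the lowest library both carried the number 3, one in each group. Its log2 fold change was −0.55 ± 0.44 (edgeR adjusted p = 0.564), −0.16 without placebo 3, −0.23 without DHT 3, −0.96 without DHT 2 (adjusted p = 0.569) and 0.15 without both libraries numbered 3.

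With the replicate number as a block, which compares same-numbered libraries, 2 of the 10 were called, Gclc and Srxn1, both higher, where 10.7% of all genes were called, 5.44% higher and 5.28% lower. The labels name no pairing. In deviations from the group means, placebo 2 correlated more with DHT 1 (0.49) than with DHT 2 (0.20), so calls with the block rest on a pairing that is not established. Srxn1 was then 0.97 ± 0.28 higher on the log2 scale (edgeR adjusted p = 0.0168), and DHT was above placebo in 3 of 3 pairs, by 0.68, 1.78 and 0.45 for numbers 1, 2 and 3. The value of Gclc was 1.65 ± 0.31 (adjusted p = 7.4e-05), with pairs at 1.97, 1.63 and 1.36. Gsr and Txnrd1 were also higher in 3 of 3 pairs and Gpx1 in 0 of 3, but none of these 3 passed with the block (adjusted p = 0.585, 0.286 and 0.194). Nfe2l2 was higher in 2 of 3 pairs (1.15, 1.01 and −0.11).

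**Figure D2:**
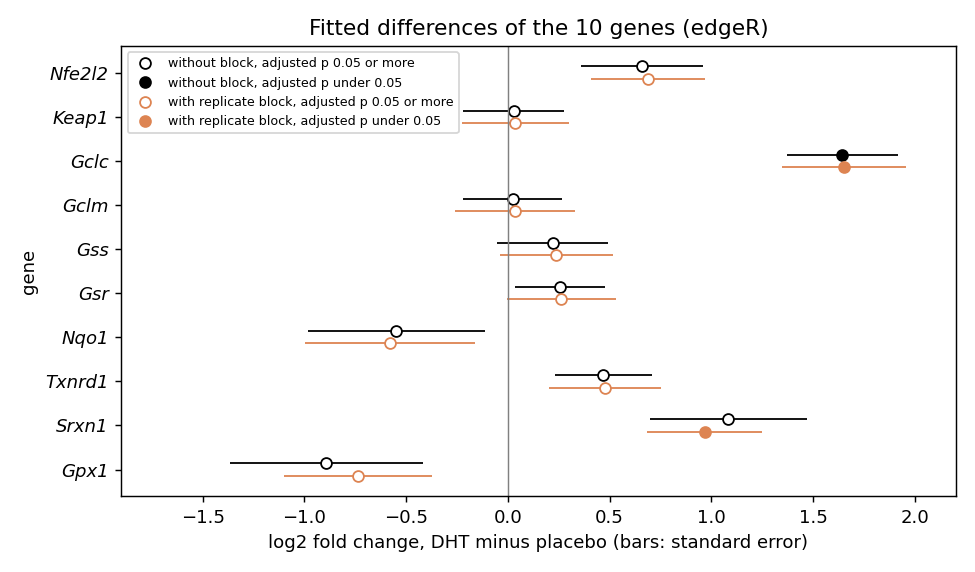
Log2 fold change of each of the 10 genes, DHT minus placebo (horizontal axis), with bars for the standard error, without (black) and with (orange) the replicate block. Filled points passed at an adjusted p under 0.05: Gclc at 1.64 and 1.65, and Srxn1 at 0.97 with the block only.

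**Figure D3:**
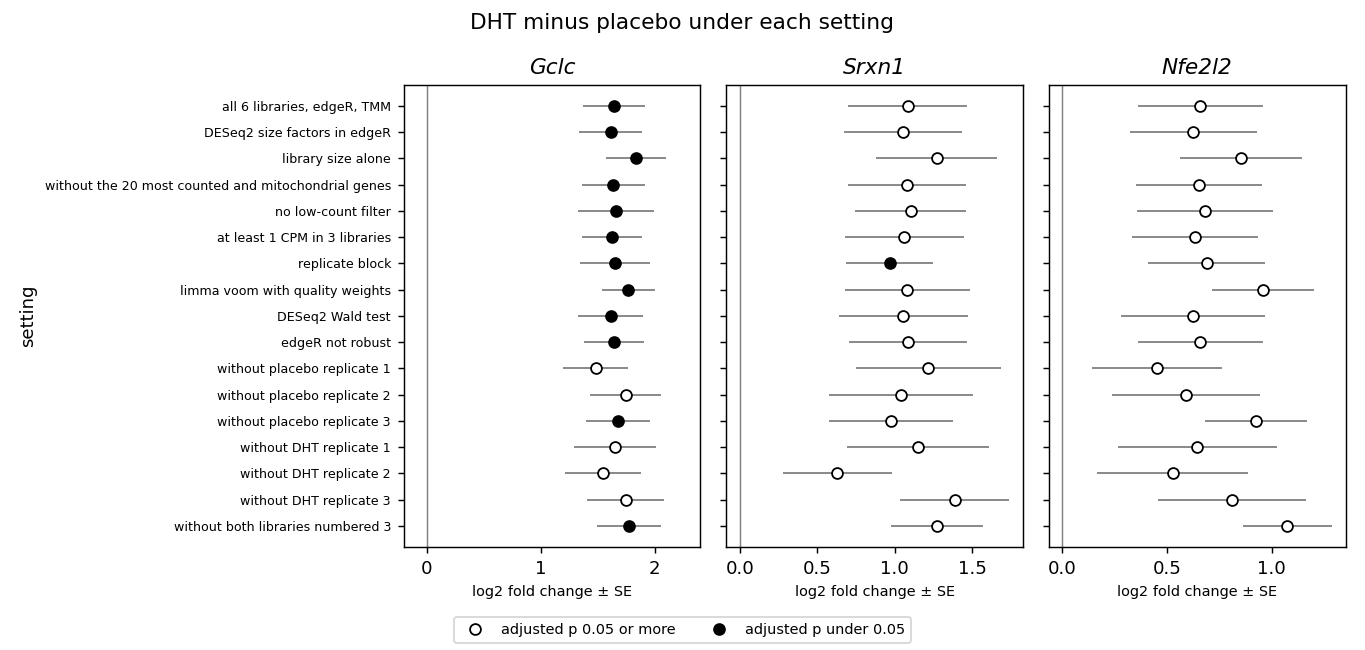
Log2 fold change ± SE of Gclc, Srxn1 and Nfe2l2 (horizontal axes) under each of 17 settings (rows), with filled points where the adjusted p was under 0.05. Gclc stays between 1.48 and 1.84 and loses its call in 5 of the 6 fits without 1 library, Srxn1 is called with the block alone and Nfe2l2 in no setting.

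Levels were compared between genes as RPKM, which divides the CPM by the exon length in units of 1000 bases. In placebo Gpx1 had by far the highest level, with 2177 ± 1441.6 RPKM (SD, n = 3), and its lowest library was above every library of the other 9 genes. Gclm (43.2 ± 6.69 RPKM) and Gclc (39.1 ± 7.31 RPKM) came next and overlapped each other. Txnrd1 (28.9 ± 4.09 RPKM) and Gsr (23.6 ± 2.77 RPKM) followed, each overlapping its neighbour in the order from Gclm down. Gss, Nfe2l2, Srxn1, Nqo1 and Keap1 formed a lower group with means of 10.3 to 12.8 RPKM, in which neighbours overlapped. In the libraries labelled DHT, Gclc came next after Gpx1 at 122 ± 16.9 RPKM, with no overlap with Gpx1 (1173 ± 321.5 RPKM) or Gclm (43.9 ± 0.46 RPKM). Nqo1 had the lowest mean there, 7.81 ± 3.89 RPKM, and overlapped Keap1 (10.46 ± 1.39 RPKM).

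Ratios within a library do not depend on its scaling, and 4 were compared with an exact permutation test over the libraries, two-sided, for which 3 against 3 allows no p below 0.1. The ratio of Gclc to Gclm counts, the catalytic against the modifier subunit of 1 enzyme, was 0.473, 0.685 and 0.483 in placebo 1, 2 and 3. In DHT 1, 2 and 3 it was 1.64, 1.92 and 1.43. Divided by exon length, the ratio of Gclc to Gclm ran from 0.791 to 1.14 in placebo and from 2.39 to 3.22 in the libraries labelled DHT. Per length, Gclc was below Gclm in placebo 1 and 3 and above it in the other 4 libraries. The mean log2 ratio was −0.89 ± 0.30 in placebo and 0.73 ± 0.21 in DHT (SD, n = 3 each), a difference of 1.62 with exact p = 0.1, the smallest possible, and it stayed between 1.51 and 1.79 when any 1 library was left out.

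The ratio of Nfe2l2 to Keap1 counts, the factor against its adaptor, was 0.653, 0.822 and 1.68 in placebo and 1.47, 1.66 and 1.41 in DHT 1, 2 and 3. Placebo 3 lay above all DHT libraries. The difference in mean log2 ratio was 0.65 (exact permutation p = 0.4), without placebo 3 it was 1.04 (exact permutation p = 0.1, where 2 against 3 were compared) and without placebo 1 it was 0.36 (exact permutation p = 0.5). The ratio of Gsr to Gpx1, the enzyme that regenerates glutathione against one that spends it, differed by 0.998 on the log2 scale (exact permutation p = 0.2), and by 0.58 without placebo 3. The ratio of Txnrd1 to Gsr, the reductases of thioredoxin and of glutathione, differed by 0.21 (exact permutation p = 0.4). It was 0.39 without placebo 2 (exact permutation p = 0.1) and between 0.12 and 0.15 without placebo 1, placebo 3 or DHT 1 (exact permutation p = 0.9, 0.9 and 0.4). Adjusted over the 4 ratios (Benjamini-Hochberg), each exact permutation p was 0.4.

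**Figure D4:**
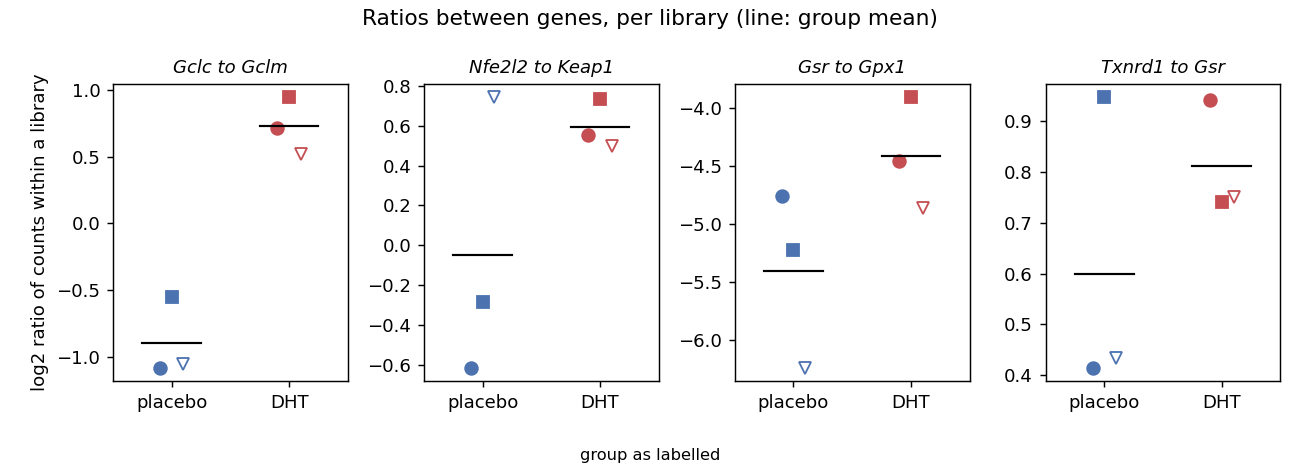
Log2 ratio of counts within each library (vertical axes, on separate scales) for 4 pairs of genes, in placebo (blue) and DHT (red), with circles, squares and open triangles for libraries 1, 2 and 3 and lines at the group means. The groups are apart for Gclc to Gclm (−0.89 against 0.73), and overlap for the other 3 pairs, where placebo 3 lies above DHT for Nfe2l2 to Keap1 and below it for Gsr to Gpx1.

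Genes around the 10 were described in 7 lists, by counts and medians. Of 14 partners and regulators of NRF2, 0 were called, 1 had an unadjusted p under 0.05 and the median log2 fold change was 0.31, or 0.11 without placebo 3. Syvn1, which encodes a ubiquitin ligase of the endoplasmic reticulum that can degrade NRF2, was at 59.5, 47.9 and 23.3 CPM in placebo and 148, 78.1 and 87.3 CPM in DHT, without overlap (1.26 ± 0.41, edgeR adjusted p = 0.195). The small MAF genes went apart in sign, with −0.72 ± 0.32 for Maff (adjusted p = 0.321) and 0.71 ± 0.32 for Mafk (adjusted p = 0.324). With the block Syvn1 (adjusted p = 0.000705) and Nfe2l1, the gene of the related factor NRF1 (0.94, adjusted p = 0.0207), were higher, 2 of 14 where 5.44% of all genes were called higher with the block.

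Of 32 other NRF2 target genes tested, 2 were called higher and 0 lower, 6.25% against 1.65% of all genes called. The median log2 fold change was 0.19, with 22 genes above 0 and 10 below, where 48.1% of all genes were above 0. Aox1, an aldehyde oxidase gene with higher expression in male mouse liver, rose from 26.1 ± 7.43 to 112 ± 14.5 CPM (SD, n = 3 each, 2.10 ± 0.28, edgeR adjusted p = 0.0122). It lost its call without placebo 1, DHT 1 or DHT 2 (adjusted p up to 0.072). Gstp1, a glutathione transferase gene also known for higher expression in male mouse liver, rose from 199.9 ± 42.4 to 609 ± 138 CPM (1.61 ± 0.30, adjusted p = 0.0416). Leaving out placebo 3 kept its call, and leaving out any other single library lost it (adjusted p up to 0.164), and its reads may be shared with the near-identical Gstp2. Abcc4, an efflux pump gene, had −2.11 ± 0.54 (adjusted p = 0.116). With the block 3 were higher (Aox1, Gstp1 and Ephx1, a microsomal epoxide hydrolase gene) and 2 lower (Abcc4 and Gsta2, a transferase gene), beside 5.44% and 5.28% of all genes with the block. Without placebo 3, Abcc4 was called lower too. Without both libraries numbered 3, where 2.95% of all genes were called, Abcc4 was again called lower. Gstm3, a transferase gene, was called higher in that fit only, and with all 6 libraries it had 1.63 ± 0.72 (edgeR adjusted p = 0.319). Slc7a11, the cystine importer gene, and Gpx2 were too low to test, with 0 to 5 and 1 to 9 counts per library.

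Of 9 genes tested in the supply of cysteine, 0 were called, and the median was −0.18 with TMM and 0.0065 with library size alone. Gnmt, a methyltransferase gene of the methionine cycle, held 2060.4, 2308 and 2923 CPM in placebo and 1264, 699 and 1716.5 CPM in DHT, without overlap (−0.99 ± 0.37, edgeR adjusted p = 0.249). Bhmt, which remethylates homocysteine (0.72 ± 0.29, adjusted p = 0.287), and Ahcy, which hydrolyses S-adenosylhomocysteine (−0.72 ± 0.34, adjusted p = 0.35), had opposite signs. With the block, which called 10.7% of all genes, Gnmt was lower (adjusted p = 0.0406) and Slc1a4, a neutral amino acid transporter gene, higher (adjusted p = 0.0029). Of 11 genes of glutathione breakdown and the glyoxalases, 0 were called and the median was −0.24. Ggt5, a gamma-glutamyltransferase gene, had −1.41 ± 0.32 (adjusted p = 0.0782), Glo1, the glyoxalase gene that uses glutathione, 0.96 ± 0.25 (adjusted p = 0.122) and Chac1, which degrades glutathione, −0.57 ± 0.31 (adjusted p = 0.407). With the block Ggt5 was lower (adjusted p = 0.00768) and Glo1 higher (adjusted p = 0.0292), and without placebo 3 Ggt5 was called lower.

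Of 25 genes tested that reduce peroxides or disulfides, 0 were called, 4 had an unadjusted p under 0.05, and 23 were below 0, where 51.9% of all genes were. The median was −0.36 with TMM and −0.16 with library size alone, beside 0.17 for all genes on the second scale, where 18 of the 25 were below 0. Placebo 3 held the highest summed level of the list, 11509 CPM against 6766 to 8645 CPM in the other 5 libraries. Without it 15 of the 25 were below 0, where 49.9% of all genes were, and the median was −0.094. Gpx7, a peroxidase gene of the endoplasmic reticulum, had 6.25 ± 2.99 CPM in placebo and 1.45 ± 0.46 in DHT (SD, n = 3 each, −2.11 ± 0.43, edgeR adjusted p = 0.0637). Prdx4, the peroxiredoxin gene of the same compartment, had −1.18 ± 0.36 (adjusted p = 0.173), and Gpx8 −1.12 ± 0.37 (adjusted p = 0.2). Prdx4 held 130, 91.3 and 215 CPM in placebo 1, 2 and 3 and 56.2, 55.1 and 81.1 CPM in DHT. With the block Gpx7 (adjusted p = 7.4e-05) and Prdx4 (adjusted p = 0.00403) were lower, 2 of 25 beside 5.28% of all genes, and without placebo 3 Gpx7 was called lower. Of 11 genes that supply NADPH, the electron source of both reductases, 0 were called, 0 had an unadjusted p under 0.05 and the median was 0.37, or 0.21 without placebo 3. The 3 with the smallest p were Nnt, the transhydrogenase gene that is known to carry a deletion in C57BL/6J (0.55 ± 0.26), Taldo1 (0.39 ± 0.23) and H6pd (0.67 ± 0.42). Of 8 genes of selenoprotein synthesis, on which Txnrd1 and Gpx1 depend for their selenocysteine, 0 were called, 0 had an unadjusted p under 0.05 and the median was −0.18. It was 0.013 with library size alone and 0.049 without placebo 3. Pstk (−1.12 ± 0.59), Secisbp2 (0.45 ± 0.25) and Scly (−0.29 ± 0.25) had the smallest p in that list, and exons of Pstk overlap those of Ikzf5 on the opposite strand over 58.8% of their length. Pstk held 34.5 CPM in placebo 3, 8.45 and 8.24 CPM in placebo 1 and 2, and 5.60 to 11.0 CPM in DHT.

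**Figure D5:**
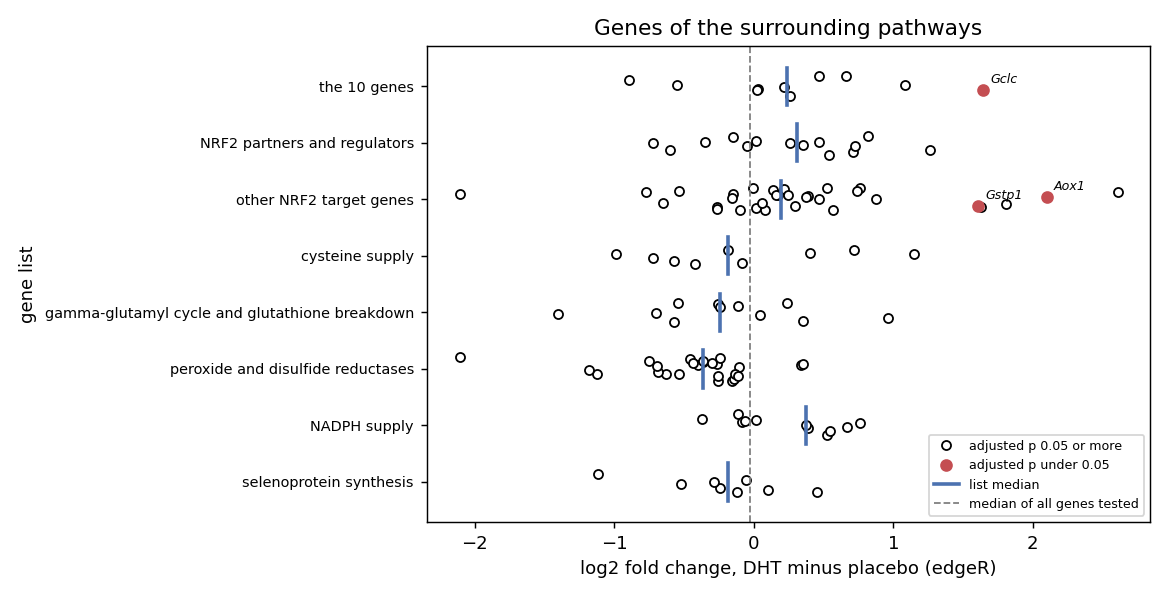
Log2 fold change, DHT minus placebo (horizontal axis), of each gene tested in the 10 genes and in 7 lists around them (rows), with blue lines at the list medians and a dashed line at the median of all genes (−0.024). Red points passed at an adjusted p under 0.05: Gclc, Gstp1 and Aox1, and the peroxide and disulfide reductases lie mostly left of the dashed line (median −0.36, or −0.094 without placebo 3).

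In bulk tissue, fewer cells of a type and less RNA per cell cannot be told apart. Hepatocyte markers, which fit the liver label, summed to 102350 to 138580 CPM in placebo and 81359 to 96066 CPM in the libraries labelled DHT. Alb made up most of that sum, with 68087 to 96192 CPM in placebo and 51387 to 65991 CPM in DHT. With CPM of total counts, without TMM, Alb overlapped between the groups. Of the 10 hepatocyte markers 7 were below 0, 0 were called and the median log2 fold change was −0.39. Markers of periportal hepatocytes summed to 10808 to 13390 CPM against 4388 to 8971 CPM, with 8 of 8 below 0 and 0 called, and those of pericentral hepatocytes to 6462 to 15190 CPM against 7938 to 10572 CPM, with 5 of 8 above 0 and 0 called. Cyp2e1, which is also in the hepatocyte list, made up most of the pericentral sum. Pericentral markers went apart, with Cyp1a2 at −1.93 ± 0.47 (edgeR adjusted p = 0.1) and Axin2 at 1.04 ± 0.37 (adjusted p = 0.235), both without overlap. With the block Cyp1a2 and the periportal Sds, Pck1 and Cdh1 were lower and Axin2 higher, beside 5.28% and 5.44% of all genes. Also lower with the block were Cps1 and Tat of the hepatocyte list, Colec11 of the stellate list and Krt19 of the cholangiocyte (bile duct) list. Of the T and NK cell list, Cd3d, Gzma and Klrb1c were lower with the block. Without placebo 3, where 5.54% of all genes were called, Cyp1a2, Cdh1 and Tat were lower. T and NK cell markers summed to 4.10 to 7.28 CPM in placebo and 1.79 to 2.80 CPM in DHT, with 7 of 7 tested below 0. Gzma, a granzyme gene, was lower among them (1.71 ± 0.61 against 0.27 ± 0.11 CPM, edgeR adjusted p = 0.0414). Its call was lost with library size alone, without both libraries numbered 3 and in all of the 6 fits without 1 library other than that without placebo 3 (adjusted p up to 0.176). Markers of Kupffer cells (190 to 283 against 204 to 305 CPM), sinusoidal endothelium (171 to 328 against 148 to 198), stellate cells (268 to 645 over both groups), B cells (11.0 to 39.3), neutrophils (0.55 to 2.59) and red cells (674 to 1534) overlapped between the groups, with 0 called. Of 6 neutrophil markers 2 were tested. In the stellate and the sinusoidal lists 7 of 8 were below 0 (medians −0.67 and −0.38), and in the Kupffer list 7 of 8 were above 0. Among red cell markers 5 of 6 were below 0, but Alas2 was higher without overlap (1.93 ± 0.38, edgeR adjusted p = 0.0523). Alas2 was called higher with library size alone, with the block, without placebo 3 and without both libraries numbered 3. The summed cholangiocyte markers overlapped as well (78.4 to 90.4 against 50.3 to 101 CPM), and Spp1 made up most of that sum. Of the 5 tested 0 were called, 4 were below 0, 3 had an unadjusted p under 0.05 and the median was −0.89. In Krt19 (−1.49 ± 0.35), Krt7 (−1.17 ± 0.41) and Epcam (−0.89 ± 0.29), keratin and adhesion genes of the bile duct, all libraries labelled DHT lay below placebo, and without placebo 3 Krt19 was called lower. Krt7 held only 19 to 69 counts per library. Sox9 had the opposite sign (0.51 ± 0.51, edgeR adjusted p = 0.65) and, like Spp1 (−0.24 ± 0.31, adjusted p = 0.743), overlapped between the groups. No marker was at 0 counts in all 6 libraries. The part of the periportal, bile duct, T and NK cell and Y-linked differences in the higher level of Gclc was not tested.

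Genes with the most similar profiles were sought among 11957 others with a mean of at least 1 CPM, by the root mean square difference of log2 (CPM + 0.5) over the 6 libraries, each gene centred on its own mean. The nearest to Gclc were Slc16a13, a monocarboxylate transporter gene (0.10), Plin2, a lipid droplet coat gene (0.14), and Xrcc3, a gene of homologous recombination (0.15). Slc16a13 held only 0.43 to 1.02 CPM in placebo, so the 0.5 added narrows its difference between the groups and weighs on its rank. Its fitted log2 fold change was 1.99 ± 0.40, beside 1.64 ± 0.27 for Gclc. Xrcc3 was also low in placebo, at 1.08 to 1.71 CPM. Plin2 held 174, 338 and 264 CPM in placebo 1, 2 and 3 and 892, 953 and 652 CPM in DHT. Of these 3, Xrcc3 was called (2.02 ± 0.30, edgeR adjusted p = 0.0171), and kept its call in 2 of the 6 fits without 1 library, those without placebo 2 or 3. The other 2 were not called (adjusted p = 0.0569 and 0.0516). All 3 were picked for a profile like that of Gclc, itself called, in these same libraries. A difference between the groups was thus built into the choice, and their p-values are no separate result. The nearest to Nfe2l2 were Col12a1, a collagen gene (0.12), Hsd17b12, a gene of fatty acid elongation (0.15), and Kdsr, a gene of sphingolipid synthesis (0.15). Col12a1 held only 0.74 to 2.29 CPM per library, so the 0.5 added weighs on its rank as well. The nearest to Nqo1 were Mgst3, a microsomal glutathione transferase gene (0.10), Usp18, which removes ISG15 from proteins (0.26), and Cbr1, a carbonyl reductase gene (0.27). Mgst3 held 29.5, 30.05 and 53.5 CPM in placebo and 26.5, 37.2 and 16.1 CPM in DHT, so that, as in Nqo1, the highest and the lowest library were the pair numbered 3. Among the 10 genes the nearest to Gclc was Nfe2l2, at 0.53, and none of the 10 lay nearer to Nqo1 than 0.56.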

How the data were processed

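Liver RNA was measured by paired-end sequencing in 6 libraries, per the labels' protocols. The authors deposited whole-number gene counts, 1 table per library, with the position and exon length of 49212 genes, per the file headers. Per the submitters' processing notes, Trimmomatic 0.36, STAR 2.5.2b, featureCounts and Subread 1.5.2 were used with the build GRCm38, whose roles the notes as held here do not order. How strand and multiply mapped reads were handled is not given in the sources used here.

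From these counts, low-count genes were removed with filterByExpr by group, leaving 15126, libraries were scaled by TMM (factors 0.9214 to 1.082), and DHT was compared with placebo by edgeR 4.0.16 (glmQLFit, robust, and glmQLFTest, without covariates) in R 4.3.3. The code was tested on simulated data. A log2 fold change's SE is its size over the square root of F. In a library, 3 counts correspond to 0.0498 to 0.0726 CPM. No libraries agreed within sampling noise (smallest chi-square per degree of freedom 104, DHT 1 against DHT 2). Coordinates are those deposited; 9 of the 10 genes have the same in GENCODE M21.

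The genes, lists and tests were chosen with earlier results of these data known. Named are all 10 genes, the 3 genes of smallest p in each list, the 3 nearest profiles of Nfe2l2, Gclc and Nqo1, and called markers. Genes and markers called only in an alternative, the bile duct markers and genes too low to test were named after their values were seen. The titles number the libraries 1 to 3 in each group without naming a shared litter or day. Deviations from the group means over 15126 genes correlated at 0.31, 0.20 and 0.64 for numbers 1, 2 and 3, all above 0.1, so the numbers were treated as pairs in an alternative. Libraries of different number also correlated, placebo 2 with DHT 1 at 0.49 and placebo 1 with DHT 2 at 0.32, so that only number 3 stood out as a pair. Other alternatives were DESeq2 size factors, library size alone, leaving out the 20 most counted and the mitochondrial genes, 2 other low-count filters, DESeq2 1.42.0, edgeR without the robust option, voom with quality weights in limma 3.58.1 and leaving out each library. Leaving out both libraries numbered 3, the gene lists without placebo 3, and CPM without TMM were added after seeing the data.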

Additional observations from a re-analysis of the deposited data

How the results depend on the processing

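Over all genes, the count called was 250, and 521 with no low-count filter, 744 with limma voom, 1062 with DESeq2, 1621 with the replicate block and 448 without both libraries numbered 3. It ran from 84 to 862 when 1 library was left out. Of the 10 genes, 2 were called with the replicate block and 0 to 1 when 1 library was left out; the other alternatives called 1, Gclc. The block changed no other call among the 10 genes. The log2 difference of the 4 ratios kept its sign in all of their alternatives, and with the block their exact p-values were 0.25 or 0.5, of which 0.25 is the smallest possible. The log2 fold change of Keap1 turned to −0.015 with voom and −0.012 without both libraries numbered 3, and ran from −0.12 to 0.14 when 1 library was left out. That of Gclm turned to −0.0068 with DESeq2 and with its size factors, and ran from −0.065 to 0.16 when 1 library was left out. That of Nqo1 turned to 0.15 without both libraries numbered 3. The cause was not tested. With 3 libraries per group, the 10 genes have an SE of 0.22 to 0.47 on the log2 scale. Differences well above their SE also went uncalled, as in Srxn1 (1.08 ± 0.38, edgeR adjusted p = 0.233), so a gene that was not called is not shown to be unchanged.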

Other observations

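Placebo library 3 also held the highest level of several redox genes outside the 10, which were chosen after their values were seen. Prdx1, a cytosolic peroxiredoxin gene and a substrate of sulfiredoxin at the protein level, was at 2365 CPM there and at 866 to 1127 CPM in the other 5 libraries. Prdx2 was at 318 CPM there and at 111 to 156 CPM in the others. The list of selenoprotein synthesis summed to 20709 CPM in that library and to 5990.5 to 9429 CPM in the others. Without the 20 most counted and the mitochondrial genes, 7 of its 8 genes were left, so very abundant RNA weighs on this sum. Of the 3 genes named from it, only Pstk was highest in placebo 3, at 34.5 CPM. Scly was at 84.2 CPM there and at 75.6 to 124 CPM in the others, and Secisbp2 at 6.72 against 9.08 to 12.3 CPM. Cbr1 was at 203 CPM in placebo 3, against 74.9 to 153 CPM in the other libraries. Hmox1, the heme oxygenase gene and a further target of NRF2, lay at 17.0 to 23.9 CPM in placebo and 18.3 to 29.0 CPM in the libraries labelled DHT, with overlap (0.21 ± 0.27, edgeR adjusted p = 0.724).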
